A study of Caenorhabditis elegans with 8 samples.

Results

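The 53 Caenorhabditis elegans genes that the deposited table names with lgc and a number, together with mod-1, were followed through 8 RNA sequencing libraries of sorted neurons. They were taken by name from a table of 46748 genes, which gave 54 genes in all, 1 on chromosome I, 6 on II, 6 on III, 12 on IV, 12 on V and 17 on X. The worms were of strain OH10689 and untreated, and every sample carried otIs355, an array on chromosome IV in which the rab-3(prom1) promoter drives a nuclear TagRFP. Cells called neurons were collected by fluorescence-activated sorting, so a cell entered by its reporter signal and not by its lgc genes. The 2 groups are 4 libraries of the SoLo Ovation kit, numbered SoLo 1 to 4, and 4 libraries of the SMARTseq V4 kit finished with Nextera XT, numbered SMARTseq 1 to 4. Each of 4 RNA samples had been divided between the kits, so the comparison asks what each kit measures in the same RNA. Nothing in the labels ties the 4 RNA samples to separate cultures, so p-values reflect only the spread among them, which may be technical. As background, SMARTseq V4 primes cDNA synthesis on the poly(A) tail, whereas SoLo priming does not depend on that tail.

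As background, lgc stands for ligand-gated ion channel. These genes encode subunits of the Cys-loop family, in which subunits assemble into a ring around a central pore, a transmitter binds outside the cell, and the pore opens to anions or cations. In vertebrates the family is known for nicotinic acetylcholine, GABA, glycine and serotonin receptors, while in nematodes it also holds channels opened directly by serotonin, dopamine, tyramine, betaine and acetylcholine with anion pores. Such channels let a neuron answer a transmitter within milliseconds. For many lgc genes no ligand is named here. The name of the set thus covers more than orphan and amine-gated channels, since lgc-35 is gated by GABA, lgc-46 by acetylcholine and lgc-41 by betaine.

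The libraries held 2354681 to 3454199 gene counts in SoLo and 4510927 to 7099497 in SMARTseq. Within each kit, libraries 2 to 4 were far more alike than any of them was to library 1, although all differed beyond counting noise. Over genes with at least 20 reads in a pair, the mean chi-square per gene, which counting noise alone would put near 1, was 2.29 to 3.42 among SoLo 2 to 4 and 29.7 to 32.5 between SoLo 1 and these, against 9.43 to 11.6 among SMARTseq 2 to 4 and 87.0 to 98.1 between SMARTseq 1 and these. All 12 neuronal marker genes had reads in both kits, with summed levels of 13800.4 to 18779 CPM (counts relative to TMM-scaled library size) in SoLo and 16270.1 to 22639 CPM in SMARTseq. Gene by gene the direction was the other one. In the test described below, 8 of the 12 were called higher in SoLo and 1 lower, beside 20% and 27.6% of all genes tested. Markers of other cells also had reads, 8 of 8 body wall muscle genes with 6099.6 to 7587 CPM in SoLo and 4037 to 5482 CPM in SMARTseq. The 8 hypodermis and cuticle markers summed to 85.1 to 241 CPM in SoLo and 256 to 2206 CPM in SMARTseq, and the 8 intestinal markers to 176 to 288 CPM in SoLo and 39.4 to 67.3 CPM in SMARTseq. The 5 pharyngeal muscle markers summed to 123 to 254 CPM in SoLo and 25.3 to 95.5 CPM in SMARTseq. Of the 7 glial markers, 7 had reads in SoLo and 6 in SMARTseq, where mir-228 was at 0, and they summed to 15.7 to 46.8 CPM in SoLo and 89.2 to 137 CPM in SMARTseq. Only 3 glial markers were tested, with 1 called higher in SoLo and 1 lower, beside the same 20% and 27.6%. The part of all these cell types in the differences described here was not tested. In RNA of mixed cells, fewer cells of a type and less RNA per cell cannot be told apart.

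The lgc genes and mod-1 differed between the kits more often than not, and more of them were lower in SoLo. Of the 54 genes, 38 had enough reads for the test. Of these 38, 8 were higher in SoLo and 21 lower, 76.3% in all, beside 47.6% of all 11378 genes tested, among which 20% were higher in SoLo and 27.6% lower. The median log2(SoLo/SMARTseq) of the fit, written log2 ratio from here on and positive where SoLo was higher, was -1.37 over the 38 genes and 0.01 over all genes tested. Passing the filter on low counts could itself favour a difference, since a gene may pass through the kit where it is high. Of the 38, 28 passed the filter's level of 2.51 CPM in all 8 libraries, with 7 higher in SoLo, 14 lower and 7 not called. The share called among all genes that passed this level in all 8 libraries was not computed. These counts therefore have no matching background. The 4 SoLo and 4 SMARTseq values did not overlap for 27 of the 38 tested genes, beside 46.2% of all 11378 genes tested. All 27 were among the 29 called genes, of which lgc-19 and lgc-20 overlapped. Over all 54 genes, without a test, the mean level was higher in SoLo for 18 and lower for 36. With library totals as the only scaling, which moved the median of all genes to 0.56, 12 of the 38 were higher in SoLo and 17 lower. Of all 11378 genes, 4318 were then higher in SoLo and 2388 lower. Under that scaling lgc-20, lgc-22, lgc-27 and lgc-33 lost their calls, and mod-1, lgc-9, lgc-46 and lgc-49 gained one. With the RNA sample number as a block, 10 were higher in SoLo and 23 lower, beside 3290 and 3664 of all 11378 genes. Without both libraries of RNA sample 1 the counts were 9 and 22, beside 3005 and 3691 of all 11479 genes then tested. RNA samples 2 to 4 were also summed into 1 library per kit. Without the block, 2 genes (lgc-50 and lgc-42) were called higher and 5 (lgc-4, lgc-13, lgc-14, lgc-38 and lgc-47) lower. Of all 14456 genes then tested, 490 were higher and 851 lower. With the block, 10 and 23 of the 46 lgc genes and mod-1 then tested were higher and lower. These included mod-1, lgc-7 and lgc-46 but not lgc-21 or lgc-22. Of all genes, 3310 were higher and 3758 lower in that fit.

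**Figure D1:**
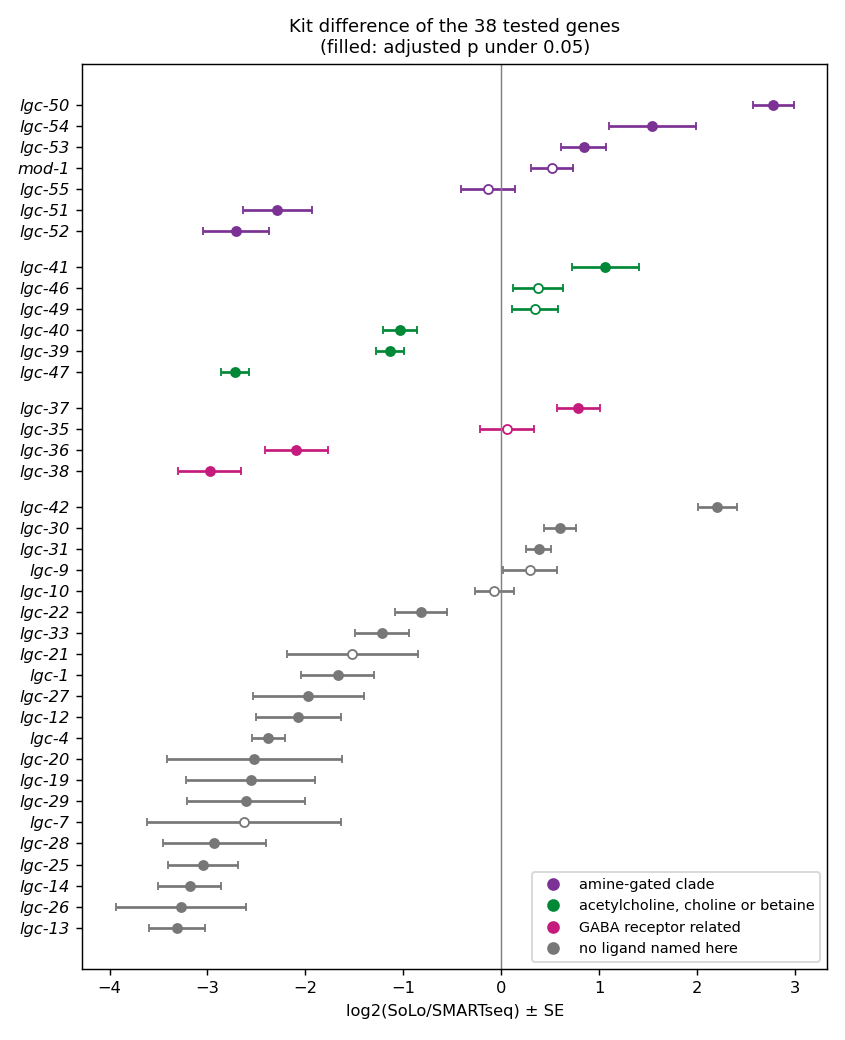
Log2(SoLo/SMARTseq) of the 38 tested genes, on the x axis, with its standard error as bars, in 4 groups of genes from top to bottom. Filled points passed an adjusted p of 0.05, 8 to the right of 0 and 21 to the left, with lgc-50 farthest right at 2.78 and lgc-13 farthest left at -3.31.

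Among the amine-gated channels and their relatives by sequence, lgc-50, lgc-54 and lgc-53 were higher in SoLo, lgc-52 and lgc-51 were lower, and mod-1 and lgc-55 did not pass the test. This is 3 and 2 of 7, beside 20% and 27.6% of all genes tested. lgc-50 encodes a serotonin-gated cation channel and lies at chromosome III 7391090 to 7395454 on the minus strand (WBcel235), with 2.08% of its exon bases under an exon of the opposite-strand gene trd-1. It had 97.8, 84.2, 76.6 and 70.2 CPM in SoLo 1 to 4, against 14.03, 10.4, 9.89 and 13.5 CPM in SMARTseq 1 to 4. Every SoLo library was above every SMARTseq library. The log2 ratio was 2.78 ± 0.21 (SE, edgeR adjusted p = 5.12e-06), the largest in favour of SoLo among the 38.

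mod-1, the serotonin-gated chloride channel of chromosome V 8909704 to 8914040, had 122.2, 93.1, 97.1 and 88.4 CPM in SoLo, against 93.3, 65.9, 50.5 and 70.3 CPM in SMARTseq. SMARTseq 1 reached into the SoLo range, and the groups overlapped. The log2 ratio was 0.52 ± 0.21, which did not pass (edgeR adjusted p = 0.0704), but passed with the RNA sample as a block (edgeR adjusted p = 0.00488) and without SMARTseq 1 (edgeR adjusted p = 0.0129). Within the numbered pairs the log2 of SoLo over SMARTseq CPM of mod-1 was 0.39, 0.50, 0.94 and 0.33. Of its exon bases 8.53% lie under K06C4.20 on the opposite strand. The relation of the 2 serotonin-gated channels to each other differed between the kits, which was not tested. Per kb of exon, mean mod-1 was 1.54 times mean lgc-50 in SoLo and 7.38 times in SMARTseq.

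lgc-53, a dopamine-gated channel on chromosome X, had 117, 101, 121 and 108 CPM in SoLo and 79.1, 78.0, 50.3 and 41.7 CPM in SMARTseq. The groups did not overlap, and the log2 ratio was 0.84 ± 0.23 (edgeR adjusted p = 0.0131). lgc-55, the tyramine-gated chloride channel that acts in the escape response, had 79.3, 49.6, 46.6 and 48.2 CPM in SoLo and 91.2, 50.3, 59.5 and 44.7 CPM in SMARTseq. Its values overlapped fully, with library 1 the highest in each kit, and the log2 ratio was -0.14 ± 0.27 (edgeR adjusted p = 0.71). It was 0.40 with library totals as the only scaling, which shifted the median of all genes by about as much.

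lgc-52, lgc-51 and lgc-54 are grouped with the amine-gated channels by sequence. lgc-52 had 20.8, 7.85, 11.4 and 8.73 CPM in SoLo, against 105, 78.0, 64.1 and 73.5 CPM in SMARTseq, a log2 ratio of -2.71 ± 0.33 (edgeR adjusted p = 0.00013). lgc-51, the only one of the 54 genes on chromosome I, had 6.37, 3.57, 3.62 and 5.94 CPM in SoLo, against 31.1, 19.4, 14.8 and 30.2 CPM in SMARTseq, a log2 ratio of -2.29 ± 0.35 (edgeR adjusted p = 0.000561). For both, every SoLo library was below every SMARTseq library. lgc-54 had 21.1, 8.56, 10.6 and 10.1 CPM in SoLo, against 6.503, 5.44, 2.30 and 2.96 CPM in SMARTseq. Its log2 ratio of 1.54 ± 0.45 passed (edgeR adjusted p = 0.0176) but not without SoLo 1 (edgeR adjusted p = 0.0502), and 11.99% of its exon bases lie under opposite-strand genes, among them hpo-8.

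**Figure D2:**
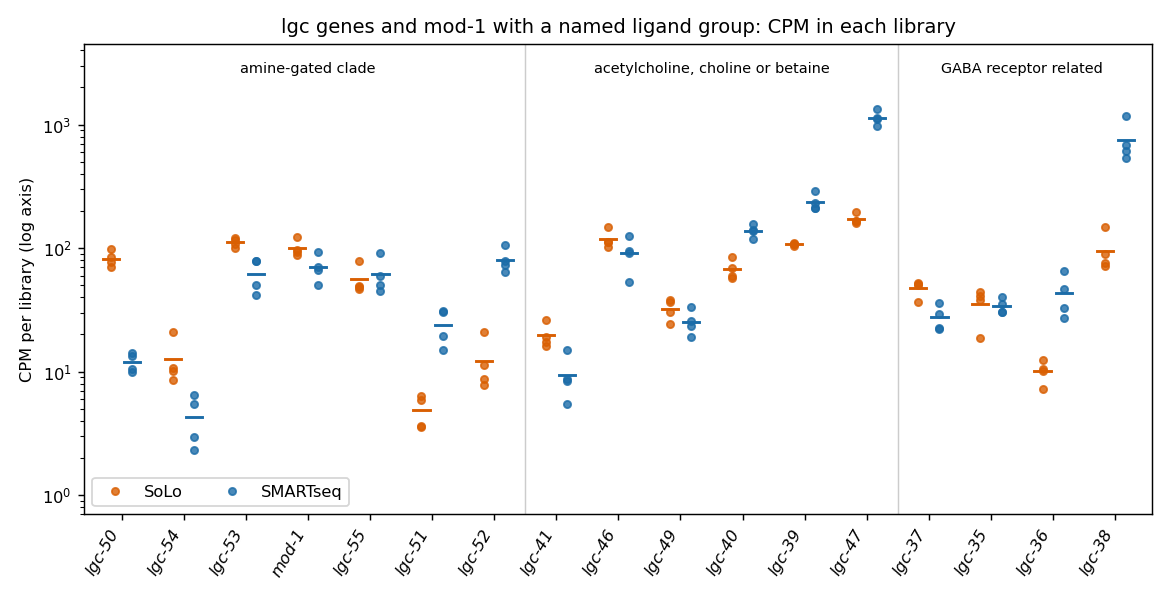
CPM in each library (points, log axis) and the kit mean (bar) for the 17 tested genes with a named ligand group, SoLo left and SMARTseq right for each gene. lgc-50 separates upward in SoLo and lgc-47 and lgc-38 separate upward in SMARTseq, while lgc-55, lgc-49 and lgc-35 overlap.

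Of the genes tied to acetylcholine, choline or betaine, lgc-47, lgc-39 and lgc-40 were lower in SoLo and lgc-41 was higher. lgc-46 and lgc-49 did not pass the test. This is 1 higher and 3 lower of 6 tested, beside 20% and 27.6% of all genes tested. lgc-47 groups by sequence with the acetylcholine-gated chloride channels and lies at chromosome X 9801081 to 9807662 on the minus strand. It had 197, 167, 160.2 and 166 CPM in SoLo, against 1327, 1136, 1106 and 982 CPM in SMARTseq. The means were 173 ± 16.4 CPM in SoLo and 1137 ± 143 CPM in SMARTseq (SD, n = 4 each), and the log2 ratio was -2.72 ± 0.15 (edgeR adjusted p = 1.05e-06). lgc-47 was the most abundant of the 54 genes in SMARTseq and the second in SoLo, by CPM and also per kb of exon.

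lgc-39, whose channel answers acetylcholine and amines, had 108, 105, 107 and 110.4 CPM in SoLo, against 288, 233, 212 and 212 CPM in SMARTseq. Its SoLo values lay within a narrow range and below all SMARTseq values, with a log2 ratio of -1.13 ± 0.15 (edgeR adjusted p = 0.000183). lgc-40, a channel gated by choline, acetylcholine and serotonin, had 84.0, 59.9, 56.8 and 68.8 CPM in SoLo, against 157, 138, 117 and 139.5 CPM in SMARTseq. Its log2 ratio was -1.03 ± 0.18 (edgeR adjusted p = 0.00104). lgc-41, the betaine-gated channel, went the other way, with 26.3, 18.9, 16.2 and 17.5 CPM in SoLo, against 15.1, 5.44, 8.66 and 8.35 CPM in SMARTseq. The groups stayed apart by a small margin, and the log2 ratio of 1.06 ± 0.34 (edgeR adjusted p = 0.0275) did not pass without SoLo 1 (0.0644), SMARTseq 2 (0.0603), SMARTseq 3 (0.0706) or SMARTseq 4 (0.07, edgeR adjusted p in each case). Of its exon bases 9.23% lie under C39B10.1 and C39B10.10 on the opposite strand.

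lgc-46, an acetylcholine-gated anion channel that acts at presynaptic terminals, had 149, 111, 102 and 111 CPM in SoLo and 126, 91.7, 94.1 and 53.3 CPM in SMARTseq. The groups overlapped and the log2 ratio was 0.38 ± 0.25 (edgeR adjusted p = 0.253), which passed with the RNA sample as a block (0.41, edgeR adjusted p = 0.0365). lgc-49, a relative of the acetylcholine-gated chloride channels, had 37.97, 24.2, 30.4 and 36.3 CPM in SoLo, against 33.2, 19.1, 23.5 and 25.6 CPM in SMARTseq, with overlapping libraries and a log2 ratio of 0.35 ± 0.24 (edgeR adjusted p = 0.258). Its relative lgc-48 was too rare to test. It had 1, 0, 0 and 1 reads in SoLo and 50, 0, 10 and 3 in SMARTseq, so most of its reads came from SMARTseq 1. The ratio of summed reads per library size, SoLo over SMARTseq, was 0.046 with a 95% Clopper-Pearson interval of 0.0055 to 0.173, which covers counting error only.

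Of the 4 genes related to GABA receptors, lgc-38 and lgc-36 were lower in SoLo, lgc-37 was higher and lgc-35 was not called. This is 1 higher and 2 lower of 4, beside 20% and 27.6% of all genes tested. lgc-38, at chromosome III 7009136 to 7019584, had 147, 88.8, 71.0 and 75.5 CPM in SoLo, against 1175, 683, 617 and 539 CPM in SMARTseq. Library 1 was the highest in both kits, and no SoLo library came near any SMARTseq library. The log2 ratio was -2.98 ± 0.33 (edgeR adjusted p = 6.16e-05). lgc-36 had 7.21, 12.5, 10.1 and 10.5 CPM in SoLo, against 33.03, 64.8, 46.8 and 27.2 CPM in SMARTseq. Its log2 ratio was -2.09 ± 0.32 (edgeR adjusted p = 0.000519), and 10.6% of its exon bases lie under F07B10.8 on the opposite strand.

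lgc-37 had 36.3, 52.1, 50.5 and 51.01 CPM in SoLo, against 29.1, 22.7, 22.1 and 36.1 CPM in SMARTseq. The lowest SoLo and the highest SMARTseq library almost met, at a log2 ratio of 0.79 ± 0.22 (edgeR adjusted p = 0.0155). lgc-35, a GABA-gated cation channel, had 18.6, 38.2, 41.3 and 44.0 CPM in SoLo and 30.5, 30.2, 39.9 and 35.5 CPM in SMARTseq. The SMARTseq values lay inside the SoLo range, and the log2 ratio was 0.06 ± 0.27 (edgeR adjusted p = 0.875).

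Of the 36 genes for which no ligand is named here, 21 were tested, with 3 higher in SoLo, 14 lower and 4 not called, beside 20% and 27.6% of all genes tested that were higher and lower in SoLo. The largest difference in favour of SoLo was that of lgc-42, which had 63.5, 47.4, 50.98 and 56.95 CPM in SoLo, against 9.58, 13.7, 12.7 and 11.31 CPM in SMARTseq. No library of one kit entered the range of the other, and the log2 ratio was 2.21 ± 0.20 (edgeR adjusted p = 1.79e-05). lgc-42 lies at chromosome III 1997869 to 2002438, with no exon base under another gene. lgc-30 had 81.5, 72.4, 75.1 and 73.4 CPM in SoLo, against 58.02, 48.2, 41.2 and 51.7 CPM in SMARTseq (log2 ratio 0.60 ± 0.16, edgeR adjusted p = 0.0129).

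lgc-31 was the most abundant of the 54 genes in SoLo. It had 205, 223, 236 and 233 CPM in SoLo, against 162, 189.8, 165 and 172 CPM in SMARTseq. The difference was small and steady in direction, with a log2 ratio of 0.38 ± 0.13 (edgeR adjusted p = 0.0333). It did not pass in 6 of the 8 fits that left out 1 library, those without SoLo 2 (0.0581), SoLo 3 (0.0681), SoLo 4 (0.0687), SMARTseq 1 (0.0525), SMARTseq 3 (0.0891) or SMARTseq 4 (0.0787, edgeR adjusted p in each case).

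In this group the 5 largest differences the other way were those of lgc-13, lgc-26, lgc-14, lgc-25 and lgc-28. lgc-13 had 2.22, 2.50, 1.69 and 2.10 CPM in SoLo, against 23.3, 20.3, 16.4 and 24.8 CPM in SMARTseq, a log2 ratio of -3.31 ± 0.29 (edgeR adjusted p = 1.43e-05). Its neighbour lgc-14 had 3.33, 3.21, 3.87 and 2.10 CPM in SoLo, against 27.7, 22.5, 41.7 and 23.4 CPM in SMARTseq, a log2 ratio of -3.18 ± 0.32 (edgeR adjusted p = 3.59e-05). lgc-25 had 5.27, 3.21, 4.35 and 3.49 CPM in SoLo, against 22.1, 42.3, 48.9 and 23.2 CPM in SMARTseq (-3.05 ± 0.36, edgeR adjusted p = 9.76e-05). All 3 were separated in every library, at SoLo levels that rest on few reads.

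lgc-28 had 2.49, 0.713, 1.21 and 0.349 CPM in SoLo, against 12.8, 6.62, 8.83 and 9.96 CPM in SMARTseq (log2 ratio -2.93 ± 0.53, edgeR adjusted p = 0.00137). lgc-26 had 1.94, 0.713, 1.45 and 0.349 CPM in SoLo, against 16.4, 4.02, 6.36 and 18.9 CPM in SMARTseq (-3.27 ± 0.66, edgeR adjusted p = 0.00274). Both genes passed the filter only through SMARTseq, where they were high. Counted on library totals, lgc-28 reached the filter's level in 1 SoLo library and lgc-26 in 0, and each did in all 4 SMARTseq libraries. Their calls and their size may be favoured by this selection. lgc-26 also stands in the list of coelomocyte markers. The other 2 markers of these scavenger cells were low in both kits, cup-4 with 1.97 ± 1.23 CPM in SoLo against 7.31 ± 6.92 CPM in SMARTseq, unc-122 with 0.845 ± 0.599 CPM in SoLo against 1.24 ± 1.70 CPM in SMARTseq (SD, n = 4 each). The 3 together, lgc-26 included, summed to 2.14 to 5.82 CPM in SoLo and 4.02 to 36.6 CPM in SMARTseq. In SMARTseq 2, cup-4 and unc-122 had 0 reads, so the 4.02 CPM there was lgc-26 alone. The sum is therefore no separate measure of these cells. The difference of cup-4 was not called (log2 ratio -1.88 ± 0.99, edgeR adjusted p = 0.149). The part of coelomocytes in the lgc-26 values was not tested.

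lgc-4, a larger subunit gene of chromosome X 9235103 to 9242223 with 2278 exon bases, had 49.05, 61.0, 55.3 and 49.3 CPM in SoLo, against 278, 256, 343 and 238 CPM in SMARTseq. It was thus abundant in both kits and clearly apart, with a log2 ratio of -2.38 ± 0.17 (edgeR adjusted p = 4.25e-06).

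The remaining 7 called genes of this group, apart from lgc-20, were all lower in SoLo. lgc-33 had 25.8, 50.3, 51.7 and 49.3 CPM in SoLo, against 66.2, 113, 116 and 117 CPM in SMARTseq, with library 1 lowest in each kit and no overlap (log2 ratio -1.22 ± 0.28, edgeR adjusted p = 0.00507). With library totals as the only scaling lgc-33 was at -0.68 and not called (edgeR adjusted p = 0.0519). lgc-12 had 6.93, 21.8, 12.6 and 8.39 CPM in SoLo, against 24.1, 72.3, 63.4 and 48.2 CPM in SMARTseq (-2.07 ± 0.44, edgeR adjusted p = 0.00354). In both kits library 1 was its lowest and library 2 its highest. lgc-27 had 1.11, 3.57, 5.07 and 5.24 CPM in SoLo, against 6.85, 8.98, 25.8 and 17.2 CPM in SMARTseq, and lost its call without SoLo 2 (-1.97 ± 0.56, edgeR adjusted p = 0.0168, 0.052 without it and 0.0509 with library totals). lgc-19 had 2.22, 3.57, 2.42 and 1.40 CPM in SoLo, against 2.74, 22.2, 23.1 and 8.89 CPM in SMARTseq (-2.56 ± 0.66, edgeR adjusted p = 0.01). Its groups overlapped through SMARTseq 1. lgc-29 and lgc-1, which are neighbours, are described with the gene runs. lgc-22 averaged 6.73 ± 0.893 CPM in SoLo, against 11.9 ± 1.92 CPM in SMARTseq (SD, n = 4 each), and its log2 ratio of -0.82 ± 0.27 (edgeR adjusted p = 0.0298) was not called without SoLo 2, SoLo 3 or SoLo 4 (0.0992 to 0.102) or with DESeq2 (adjusted p = 0.0854). Nor was lgc-22 called by edgeR with library totals (-0.28, adjusted p = 0.383), without the filter (0.162) or with RNA samples 2 to 4 summed and blocked (0.228).

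Of the 21 tested genes with no ligand named, lgc-9, lgc-10, lgc-21 and lgc-7 were not called. lgc-9 averaged 26.7 ± 8.65 CPM in SoLo, against 21.8 ± 5.23 CPM in SMARTseq, and lgc-10 averaged 27.2 ± 2.05 CPM in SoLo, against 28.5 ± 4.80 CPM in SMARTseq (SD, n = 4 each). lgc-21 had 2.77, 7.49, 5.80 and 2.80 CPM in SoLo, against 2.05, 20.1, 10.1 and 22.4 CPM in SMARTseq, where library 1 alone was low. Its log2 ratio was -1.52 ± 0.67 (edgeR adjusted p = 0.0892, 0.0363 with the block and 0.00429 without SMARTseq 1). With RNA samples 2 to 4 summed, the block gave lgc-21 a log2 ratio of -0.75 and no call (edgeR adjusted p = 0.304). lgc-7 had 12 reads in SoLo, 10 of them in SoLo 1, and 67, 10, 18 and 20 reads in SMARTseq 1 to 4. Its log2 ratio was -2.63 ± 0.99 (edgeR adjusted p = 0.0518, 0.00332 with the block, 0.00975 without SoLo 1 and 0.0471 without SMARTseq 2).

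**Figure D3:**
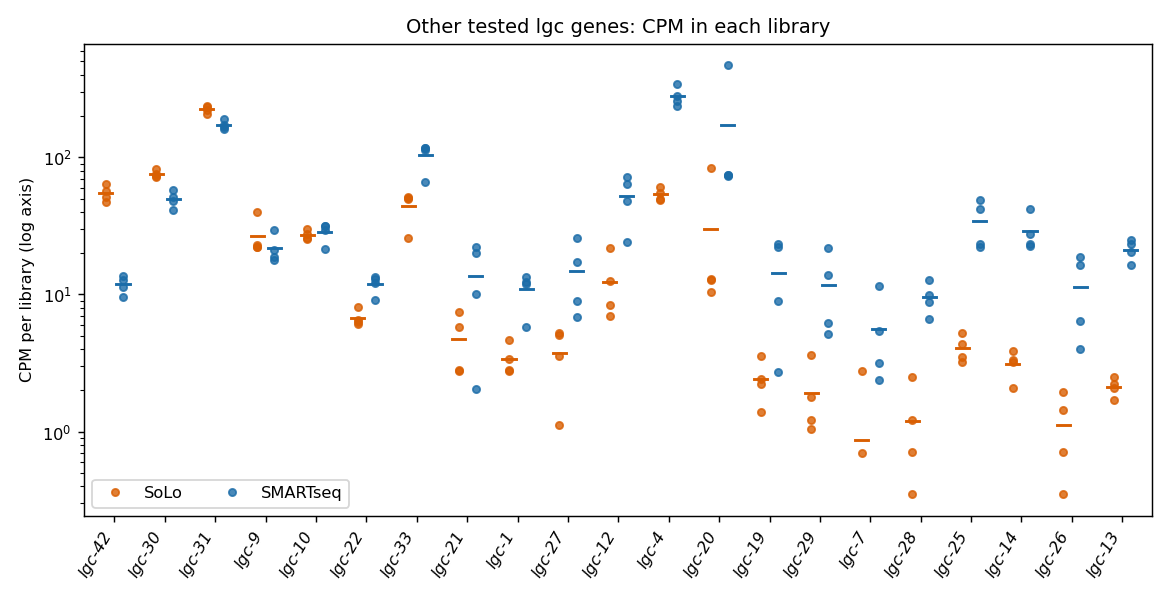
CPM in each library (points, log axis) and the kit mean (bar) for the 21 tested genes with no ligand named, SoLo left and SMARTseq right, ordered by fold change. SoLo 2 and SoLo 3 had 0 reads of lgc-7 and are not drawn for it. lgc-20 shows 1 library far above the other 3 in each kit.

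The 54 genes ranged widely in level, and their order differed between the kits. On the scale of mean CPM per kb of exon, the SoLo order began with lgc-31 (105), lgc-47 (91.0), lgc-53 (61.8), lgc-46 (61.7), lgc-39 (57.6) and mod-1 (56.999). The SMARTseq order began with lgc-47 (599), lgc-38 (437), lgc-39 (126.5), lgc-4 (122.4), lgc-20 (103) and lgc-40 (82.1). Of the first 10 genes of each order, 6 were shared, namely lgc-31, lgc-38, lgc-39, lgc-40, lgc-46 and lgc-47. lgc-50 stood in place 11 in SoLo and 35 in SMARTseq, lgc-42 in place 8 in SoLo and 29 in SMARTseq, and lgc-52 in place 24 in SoLo and 10 in SMARTseq. In SoLo, lgc-53, lgc-46, lgc-39, mod-1 and lgc-38 lay within 55.4 to 61.8 CPM per kb, a span smaller than the spread of lgc-46 or lgc-38 across libraries, so their places among themselves are not settled. lgc-47 and lgc-38 alone made up 15.9% of the summed mean CPM of the 54 genes in SoLo and 48.3% in SMARTseq. Over the 38 tested genes, log2 CPM per kb in the 2 kits had a Spearman rho of 0.643 and a Pearson r of 0.627, across genes that share the same libraries and are not independent replicates.

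**Figure D4:**
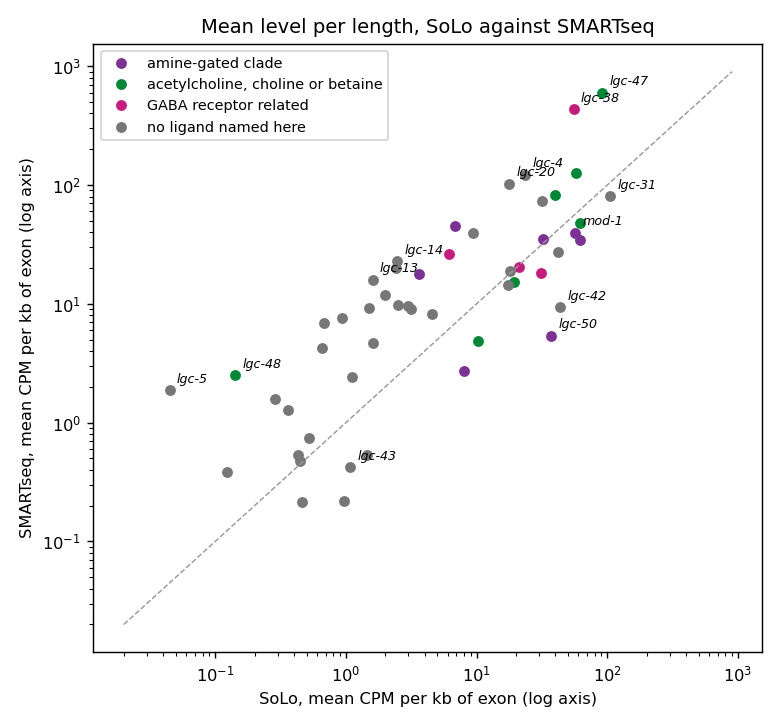
Mean CPM per kb of exon in SoLo (x axis, log) and SMARTseq (y axis, log) for the 52 genes with reads in both kits, each point 1 gene, coloured by ligand group. The dashed line marks equal levels. lgc-47 and lgc-38 lie above it, at 599 and 437 CPM per kb in SMARTseq, and lgc-50 and lgc-42 below it.

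All 54 genes together took 0.201% ± 0.0201 of gene counts in SoLo and 0.321% ± 0.0603 in SMARTseq (SD, n = 4 each). The shares were 0.231%, 0.192%, 0.193% and 0.189% in SoLo 1 to 4. In SMARTseq 1 to 4 they were 0.409%, 0.296%, 0.307% and 0.272%, without overlap and with library 1 highest in each kit. Over summed reads, lgc-47 and lgc-38 made up nearly all of the kit difference in share. lgc-47 had 2318 reads in SoLo against 22463 in SMARTseq, and lgc-38 had 1289 in SoLo against 15254 in SMARTseq. Thinned to 2354681 counts per library, 40, 37, 39 and 36 of the 54 genes had at least 5 reads in SoLo 1 to 4, and 42, 41, 41 and 41 in SMARTseq 1 to 4. At this depth 32 genes reached 5 reads in all 8 libraries, and 4 (lgc-8, lgc-17, lgc-23 and lgc-24) in no library. No gene of the 54 reached 5 thinned reads in every library of one kit and in no library of the other.

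The 16 genes below the filter had 11 to 154 reads over all 8 libraries. Their mean level was higher in SoLo for 5 and lower for 11. lgc-45 had 1, 4, 6 and 5 reads in SoLo 1 to 4 against none in SMARTseq. Against a floor of 3 counts over the 4 SMARTseq libraries it was 7.73-fold higher in SoLo. Such a value takes the observed reads as exact, without their counting error or the variation between libraries. lgc-5 had 1 read in SoLo, in library 3, and 30, 8, 18 and 0 reads in SMARTseq 1 to 4. Its ratio, SoLo over SMARTseq, was 0.0259 with a 95% interval of 0.000644 to 0.15. lgc-24 had 0 reads in SoLo and 13 in SMARTseq, all of them from SMARTseq 3 and SMARTseq 4. Against a floor of 3 counts in SoLo, again without counting error, it was 2.99-fold lower in SoLo. lgc-43 had 5, 10, 10 and 6 reads in SoLo, while all 21 of its SMARTseq reads came from SMARTseq 3. lgc-16 had reads in library 1 alone, 8 in SoLo and 6 in SMARTseq. Of the other untested genes outside the run on chromosome X, lgc-6 had 29 reads in SoLo against 125 in SMARTseq, with 23 in SoLo 1 and 94 in SMARTseq 1. lgc-11 had 6 reads in SoLo against 40 in SMARTseq, lgc-8 had 8 in SoLo against 13 in SMARTseq, and lgc-44 had 13 in SoLo against 27 in SMARTseq. lgc-34 had 30 reads in SoLo against 17 in SMARTseq, and lgc-32 had 17 in SoLo against 5 in SMARTseq, a ratio of 4.93 with a 95% interval of 1.75 to 17.1. The interval covers counting error only, so variation between libraries of these genes was not tested.

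A run of 8 of the genes, lgc-23, lgc-24 and lgc-13 to lgc-18, lies on the plus strand of chromosome X between 12065208 and 12128000. Neighbours within it are as close as 212 bases, the gap between lgc-13 and lgc-14. The cluster had 113 reads in SoLo and 1120 in SMARTseq, and only lgc-13 and lgc-14 were tested, both lower in SoLo. lgc-15 had 6 reads in SoLo against 29 in SMARTseq, lgc-18 had 18 in SoLo against 60 in SMARTseq, lgc-17 had 2 in SoLo against 9 in SMARTseq, and lgc-23 had 8 in SoLo against 16 in SMARTseq. Other close neighbours on the same strand are lgc-6 and lgc-5 (572 bases apart), lgc-7 and lgc-8 (1061 bases) and lgc-1 and lgc-29 (162 bases). lgc-1 and lgc-29 were both lower in SoLo, by log2 ratios of -1.67 ± 0.38 and -2.60 ± 0.61 (edgeR adjusted p = 0.00493 and 0.00594). lgc-29 reached the filter's level in 1 SoLo library and all 4 SMARTseq libraries, so it passed through the kit where it was high. Reads of similar neighbours may have been split or dropped in the authors' counting, so the values of these genes are uncertain.

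Exon length varied from 1101 to 3484 bases over the 54 genes. The 8 genes higher in SoLo had a median of 1813.5 exon bases (1252 to 2214) and the 21 lower ones 1497 (1140 to 2278). Over the 38 tested genes, log2 exon length and log2 ratio had a Spearman rho of 0.334 and a Pearson r of 0.349, and over 10636 tested protein-coding genes 0.303 and 0.299, both across genes. lgc-50 had the longest annotated 3' untranslated region among the 54 genes, 668 bases after the stop codon. Of the 54 genes, 26 share exon bases with another gene, 23 of them on the opposite strand, but more than 10% of the exon bases in 3 genes, lgc-17, lgc-36 and lgc-54.

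Across RNA samples, several genes moved together in both kits. lgc-20 had 83.1, 12.8, 13.05 and 10.5 CPM in SoLo 1 to 4, against 467, 72.6, 74.5 and 74.6 CPM in SMARTseq 1 to 4. RNA sample 1 was thus 6.86 times the mean of samples 2 to 4 in SoLo and 6.32 times in SMARTseq, and SoLo 1 was above 3 of the SMARTseq libraries. Within the numbered pairs, the log2 of SoLo over SMARTseq CPM of lgc-20 was -2.49, -2.50, -2.51 and -2.83. The log2 ratio of -2.52 ± 0.89 (edgeR adjusted p = 0.0417) was -2.56 with the block (edgeR adjusted p = 7.32e-09) and -2.62 without both libraries of RNA sample 1 (edgeR adjusted p = 2.44e-07). Without SMARTseq 1 it was -1.31 and not called (edgeR adjusted p = 0.118), without SoLo 1 it was -3.79 (0.0047), and without SoLo 2, SoLo 3 or SoLo 4 it was not called either (0.105 to 0.109). With library totals lgc-20 was at -1.98 and not called (edgeR adjusted p = 0.0806). DESeq2 gave no adjusted p for lgc-20.

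Over the 37 tested genes with more than 3 reads in samples 2 to 4 of each kit, the ratio of RNA sample 1 to the mean of samples 2 to 4 had a Spearman rho of 0.846 between the kits (Pearson r 0.749 of log2 ratios, across genes of the same libraries). Besides lgc-20, only lgc-29 was above 2 in both kits, with 2.68 in SoLo and 2.61 in SMARTseq. Below 0.5 in both kits were lgc-12, with 0.487 in SoLo and 0.394 in SMARTseq, and lgc-27, with 0.24 in SoLo and 0.395 in SMARTseq. For lgc-19 the ratio was 0.901 in SoLo and 0.151 in SMARTseq, and for lgc-21 it was 0.517 in SoLo and 0.117 in SMARTseq. Marker levels also differed in RNA sample 1. The hypodermis and cuticle list summed to 85.1 CPM in SoLo 1 and 203 to 241 in SoLo 2 to 4, and to 256 CPM in SMARTseq 1 and 1619 to 2206 in SMARTseq 2 to 4. The neuronal list summed to 18779 CPM in SoLo 1 and 13800.4 to 14082 in SoLo 2 to 4, and to 22639 CPM in SMARTseq 1 and 16270.1 to 17255 in SMARTseq 2 to 4. The pharyngeal muscle list summed to 254 CPM in SoLo 1 and 123 to 161 in SoLo 2 to 4, and to 95.5 CPM in SMARTseq 1 and 25.3 to 44.7 in SMARTseq 2 to 4. The intestinal list was also highest in library 1, with 288 CPM against 176 to 214 in SoLo 2 to 4 and 67.3 CPM against 39.4 to 43.6 in SMARTseq 2 to 4. The germline list was lowest in library 1, with 153 CPM against 219.7 to 282 in SoLo 2 to 4 and 250.04 CPM against 289 to 496 in SMARTseq 2 to 4. Not every list moved alike in both kits. The glial list had 46.8 CPM in SoLo 1 against 15.7 to 21.4 in SoLo 2 to 4. In SMARTseq 1 it had 89.2 CPM against 117 to 137 in SMARTseq 2 to 4. The body wall muscle list was lowest in SoLo 1 (6100 CPM against 6965 to 7587). SMARTseq 1, at 4094 CPM, lay within the 4037 to 5482 of SMARTseq 2 to 4. The part of these cells in the lgc values was not tested.

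**Figure D5:**
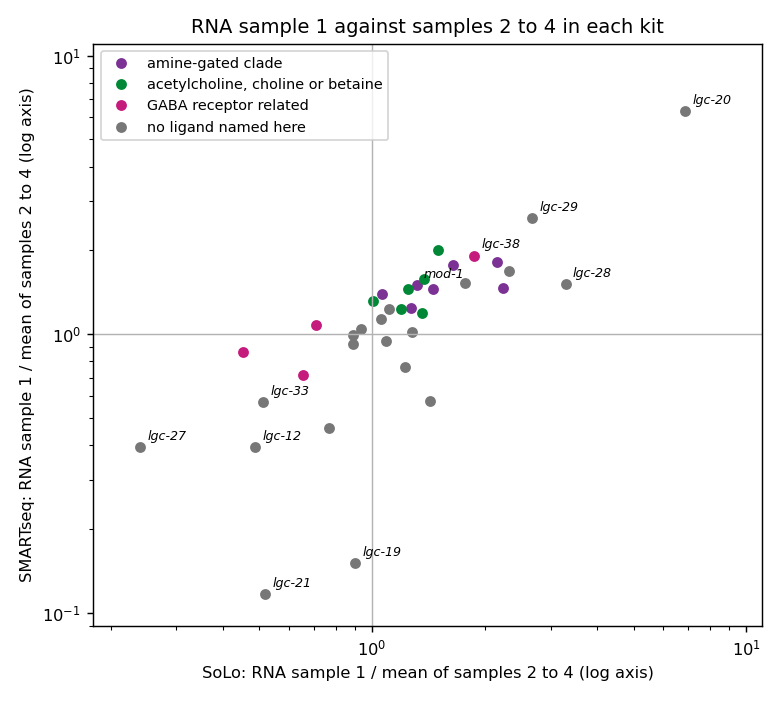
Ratio of RNA sample 1 to the mean of samples 2 to 4 in SoLo (x axis, log) and in SMARTseq (y axis, log), each point 1 of 37 tested genes, coloured by ligand group. lgc-20 lies apart at 6.86 in SoLo and 6.32 in SMARTseq, lgc-12 and lgc-27 lie below 0.5 in both kits, and the grey lines mark a ratio of 1.

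Related genes outside the set gave a background for these differences. Other Cys-loop channels gave 44 tested genes (48 in the table), among them the nicotinic, glutamate-gated chloride and GABA receptor subunits. Of these 44, 8 were higher in SoLo, 15 lower and 21 not called, with a median log2 ratio of -0.34. This is 18.2% and 34.1%, beside 20% and 27.6% of all genes tested. The largest differences in favour of SoLo were those of unc-63, a muscle nicotinic subunit, with 77.1 ± 12.1 CPM in SoLo against 5.66 ± 2.50 CPM in SMARTseq (SD, n = 4 each), and acr-5 with 25.8 ± 3.20 CPM in SoLo and 2.81 ± 1.16 CPM in SMARTseq. The largest differences the other way were those of acr-2, a subunit of the motor neuron acetylcholine receptor, with 44.3 ± 7.58 CPM in SoLo against 369.6 ± 69.0 CPM in SMARTseq, and lev-1, a levamisole receptor subunit, with 21.2 ± 1.24 CPM in SoLo and 171 ± 28.9 CPM in SMARTseq. All 4 were called by edgeR (adjusted p = 1.62e-06 to 5.63e-05). Of 3 genes named ggr, ggr-1 and ggr-2 were lower in SoLo, by log2 ratios of -1.996 ± 0.18 and -2.60 ± 0.15 (edgeR adjusted p = 1.66e-05 and 1.26e-06), and ggr-3 was not called at 0.08 ± 0.30. The reference gene tables hold lgc-56, lgc-57 and lgc-58, which are no row names of the deposited table, and no table used here pairs them with ggr names. Whether the 3 ggr genes are lgc genes under an older name is therefore not settled, and they were not counted among the 54.

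Of 25 genes that make, move or bind amines through G protein-coupled receptors, 5 were higher in SoLo, 7 lower and 13 not called. These are 20% and 28%, close to the 20% and 27.6% of all genes tested. The median was -0.08. The serotonin receptor gene ser-1 had 57.9 ± 20.4 CPM in SoLo against 11.33 ± 4.98 CPM in SMARTseq (SD, n = 4 each), and the serotonin transporter gene mod-5 had 48.2 ± 10.6 CPM in SoLo against 14.5 ± 3.07 CPM in SMARTseq. In contrast ser-7, another serotonin receptor gene, had 59.6 ± 9.31 CPM in SoLo against 484 ± 20.2 CPM in SMARTseq, and the tyramine receptor gene ser-2 had 76.5 ± 19.5 CPM in SoLo against 445 ± 88.5 CPM in SMARTseq. These 4 were called by edgeR (adjusted p = 8.6e-07 to 0.000682). For tph-1, the enzyme that starts serotonin synthesis, the log2 ratio was 0.15 ± 0.22 (edgeR adjusted p = 0.617). Of 14 tested genes that fold, traffic or cluster ligand-gated channels, 2 were higher in SoLo (unc-50 by 1.54 ± 0.30 and frm-3 by 1.03 ± 0.24) and 2 lower (madd-4, which places receptors at synapses, by -1.87 ± 0.27, and lin-2 by -1.41 ± 0.19), with a median of 0.06. These 4 had edgeR adjusted p-values of 0.00612 or less. They are 14.3% higher and 14.3% lower, beside 20% and 27.6% of all genes tested.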

How the data were processed

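The values are raw read counts per gene that the authors deposited without normalisation. The submitters' processing notes name STAR, SAMtools, featureCounts and build WBcel235. How strand and multiple alignments were handled, and with which annotation, is not given in the sources used here. Reads from overlapping genes on opposite strands can therefore not be told apart. Reads without molecular identifiers are not independent molecules. Columns were matched to samples by name, and 0 columns belonged to no listed sample. Positions, exon unions and overlaps came from Ensembl release 115 of WBcel235, where all 54 genes were found by symbol.

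Kits were compared in R 4.3.3 by edgeR 4.0.16, quasi-likelihood test, with TMM scaling, filterByExpr by kit, no block and 8 libraries fitted together, and Benjamini-Hochberg adjustment over 11378 genes, at 0.05. The code was tested on simulated data. Standard errors were approximated by dividing the absolute log2 ratio by the square root of F. CPM used the TMM library sizes. No libraries of a kit agreed within counting noise, so each was counted as its own library. This does not show that the RNA samples were independent. No label says outright that equal numbers are the same RNA sample, so the main fit ignored pairing and the block was an alternative. For the block and the ratios within numbered pairs, the RNA sample numbers were taken as pairs. The design divided each RNA sample between the kits, and deviations from the kit means correlated by 0.741, 0.342, 0.333 and 0.298 in pairs 1 to 4. Between unlike numbers the correlation reached 0.317 for SoLo 4 with SMARTseq 3, above its own pair, and 0.312 for SoLo 3 with SMARTseq 4. Genes with 0 reads in a kit were set to a floor of 3 counts over its 4 libraries. Alternatives were DESeq2 1.42.0, other scalings and filters, the block, summed libraries and leaving out each library.

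The 54 genes, the lists and the tests were chosen with earlier results of these data known. The naming rule gave values per library for genes of the 3 ligand groups, for the largest fold changes among other called genes and for the most abundant genes. Of each comparison list, the 2 called genes with the largest fold changes in each direction were named. ggr-1 to ggr-3, cup-4, unc-122 and tph-1 were added after their values were seen.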

Additional observations from a re-analysis of the deposited data

Results flagged for a closer look

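Among 4 libraries of a kit, a single library stood apart from the other 3 by Dixon's 95% criterion in 8 of 76 tests of tested lgc genes and mod-1, on 6 genes. Chance flags about 1 in 20 such groups. The library that stood apart was number 1 in all 8, high in 5. lgc-20 had 83.1 CPM in SoLo 1 and 10.5 to 13.05 in the other 3, and 467 CPM in SMARTseq 1 and 72.6 to 74.6 in the other 3. lgc-33 was low, with 25.8 CPM in SoLo 1 (49.3 to 51.7 in the other 3) and 66.2 CPM in SMARTseq 1 (113 to 117). In SoLo 1 alone, lgc-9 had 39.6 CPM (22.01 to 23), lgc-54 had 21.1 CPM (8.56 to 10.6) and lgc-55 had 79.3 CPM (46.6 to 49.6), and lgc-37 was low with 36.3 CPM (50.5 to 52.1).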

How the results depend on the processing

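Over 595 combinations of a tested gene and an alternative, 515 kept the direction and the call and 49 lost the call. A call was gained in 18, and 13 changed sign, all of the last in genes not called. lgc-20 with DESeq2, which gave it no adjusted p, is not among the 595. The log2 ratio of lgc-10 was 0.47 with library totals, 0.013 without a filter, 0.0099 and 0.011 with RNA samples 2 to 4 summed (without and with the block) and 0.033 with DESeq2. lgc-35 was -0.0042 and -0.082 with summed samples, without and with the replicate block. lgc-55 was 0.40 with library totals. Library totals moved the median of all genes from 0.01 to 0.56, so these 2 sign changes of lgc-10 and lgc-55 are about the size of the shift of all genes. Leaving out 1 library at a time, lgc-10 ran from -0.22 to 0.0037, lgc-35 from -0.031 to 0.31 and lgc-55 from -0.32 to 0.088. Leave-one-out counts of the 54 genes ran from 6 to 8 higher in SoLo and 18 to 22 lower. Over all genes tested they ran from 1934 to 2699 higher and from 2864 to 3393 lower. Of the 29 called genes, 23 passed in every such fit. With RNA samples 2 to 4 summed and no block, which leaves 4 libraries, 2 of the genes were higher and 5 lower, and of all genes 490 and 851. With library totals as the only scaling, 4318 of all genes were higher in SoLo and 2388 lower. With the replicate block, mod-1, lgc-7, lgc-21 and lgc-46 were called in addition and no call was lost. With RNA samples 2 to 4 summed, the block gave no call for lgc-21 (adjusted p = 0.304) and lgc-22 (0.228). Without rRNA and mitochondrial genes in the denominator, the mean share of counts was 0.223% in SoLo and 0.330% in SMARTseq. Leaving out both libraries of RNA sample 1 was chosen after the data were seen. The 16 untested genes had too few reads for the filter and carry no test. At least 1, 5 or 10 reads were found for 48.5, 38 and 31 genes on average in SoLo and 48.2, 41.2 and 36 in SMARTseq.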
